A study of Mus musculus with 5 samples.

Results

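The genes described here form the ATF4 branch of the integrated stress response: the transcription factor gene Atf4, its stress-induced targets, amino acid transporter genes, and genes of serine, glycine, proline and folate-linked synthesis. The list names 33 genes, all of which were found by symbol among the 45777 genes of the deposited mm10 table. A mean of at least 20 counts over the 5 libraries was required, which kept 30 genes. The lowest gene kept was Pycr1, with a mean of 98 counts, followed by Cth with 420.0. Those left out were Stc2 (mean 13.2 counts), Ddit4 (11.0) and Sesn3 (0 in every library).

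Cells were of MG5, a mouse microglial line that the labels give as WT and that was kept in medium containing 70% conditioned medium from A1 astrocyte-like cells. The 6OHA group is a single library (replicate 2) from cells given 10 µM of that compound for 6 h. The bexarotene (BEX) group holds 3 libraries (replicates 1 to 3) at the same dose and time, and a single library (replicate 3) came from untreated cells. BEX activates the retinoid X receptor, and 6OHA is the code name of another agonist of that receptor. The question of the study was how the responses to these compounds differ. The design text gives n as 3, and further replicates of 6OHA and of untreated cells were not analysed here. The labels name no vehicle for the untreated library, so effects of a vehicle and of the agonists cannot be told apart against it.

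The poly-A RNA libraries held 33823181 to 40545305 counts, and no library stood apart in depth. All 11 microglial and macrophage markers reached 1 CPM (a gene's counts scaled to a common library total) in every library, and summed to 8450 CPM with 6OHA, 8401 to 8435 CPM with BEX and 8876 CPM in untreated cells. Of 7 astrocyte markers, 2 reached 1 CPM in every library, Aqp4 was at 0 throughout, and the sum was 15.7 CPM with 6OHA, 17.8 to 20.6 CPM with BEX and 24.1 CPM in untreated cells. Neuronal markers summed to at most 4.91 CPM and fibroblast and endothelial markers to at most 11.1 CPM. The oligodendrocyte sum of 77.2 to 94.9 CPM was nearly all Mbp, with Mog at 0 in every library. In bulk libraries, fewer cells of a type and less RNA per cell cannot be told apart.

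When amino acids run short, the endoplasmic reticulum is stressed or haem is lacking, kinases phosphorylate the translation factor eIF2. Bulk protein synthesis then falls, while the Atf4 mRNA is translated more. ATF4 pairs with C/EBP-family proteins on composite DNA elements and switches on genes for amino acid uptake, amino acid synthesis and the charging of tRNAs, together with brakes on its own pathway. The data below are mRNA levels, and eIF2 phosphorylation and ATF4 protein were not measured here.

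BEX raised most of these genes and 6OHA raised few. Calls rest on an adjusted p under 0.05 in edgeR's quasi-likelihood fit, with the Benjamini-Hochberg method applied to all 15462 genes tested. All 30 genes passed the filter on low counts. With BEX against untreated cells, 20 were called higher, 0 lower and 10 were not called, beside 13.6% of all tested genes called in either direction (7.55% higher and 6.03% lower). At an unadjusted p under 0.05, edgeR put 25 higher and 0 lower, and DESeq2 called 18 higher and 0 lower. Without a filter on low counts 15 were higher, the calls lost being Eif4ebp1, Slc1a5, Phgdh, Psph and Mthfd1l. The median log2 fold change of the 30 genes was 0.29, against -0.0014 over all tested genes.

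With 6OHA against untreated cells, 2 of the 30 genes were called higher, 4 lower and 24 were not called. The background was 14.8% of tested genes called, 7.59% higher and 7.19% lower, against 6.67% and 13.3% of these genes. The count of 4 lower was 2 with DESeq2 and with limma on log2(TPM + 1) or log2(TPM + 0.1), and 1 without a filter on low counts. The count of 2 higher was 1 with both TPM scales and with GC and length offsets. Their median log2 fold change was -0.041 against -0.0031 over all tested genes, and its sign was not stable: it was 0.0047 with limma on log2(TPM + 1), 0.0048 on log2(TPM + 0.1) and 0.043 once GC content and gene length were offset. This comparison sets 1 library against 1 and has no replicate check of its own. All of the spread comes from the BEX libraries, and each lone library is taken to vary as they do. The labels do not state whether each library had its own culture, and the p-values cover no more than the spread among these libraries, which may be technical.

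Set directly against BEX at the same dose and time, 6OHA gave 19 of the 30 genes lower, 0 higher and 11 not called. In this comparison 6.53% of all tested genes were called, 4.13% lower and 2.4% higher. At an unadjusted p under 0.05, edgeR put 24 lower and 0 higher, and DESeq2 called 18 lower and 0 higher. The median log2 fold change was -0.34 for these genes and -0.0040 over all tested genes. The count of genes called lower was 4 with limma on log2(TPM + 1), 6 on log2(TPM + 0.1) and 12 without a filter on low counts, where Atf5, Chac1, Slc7a1, Slc1a5, Psph, Mthfd1l and Gpt2 lost their calls. This is the only pair of compounds in the series, and its 6OHA side is 1 library with no spread of its own. Its levels do not involve the untreated library, and a fit of only the 6OHA and BEX libraries called 20 genes lower.

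The 3 BEX libraries lay together on the same side of the lone libraries for most of these genes. All of them were above the 6OHA library for 25 of 30 genes and below it for 2, against 32.5% and 32.4% of all tested genes. They were all above the untreated library for 25 genes and below it for 4, against 33.1% and 34.5% of all tested genes. Library by library, the median log2 ratio to the untreated library was -0.041 with 6OHA and 0.31, 0.25 and 0.29 with BEX 1 to 3. The 6OHA library was above the untreated library for 12 of the 30 genes, and the BEX libraries for 26, 26 and 25.

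**Figure D1:**
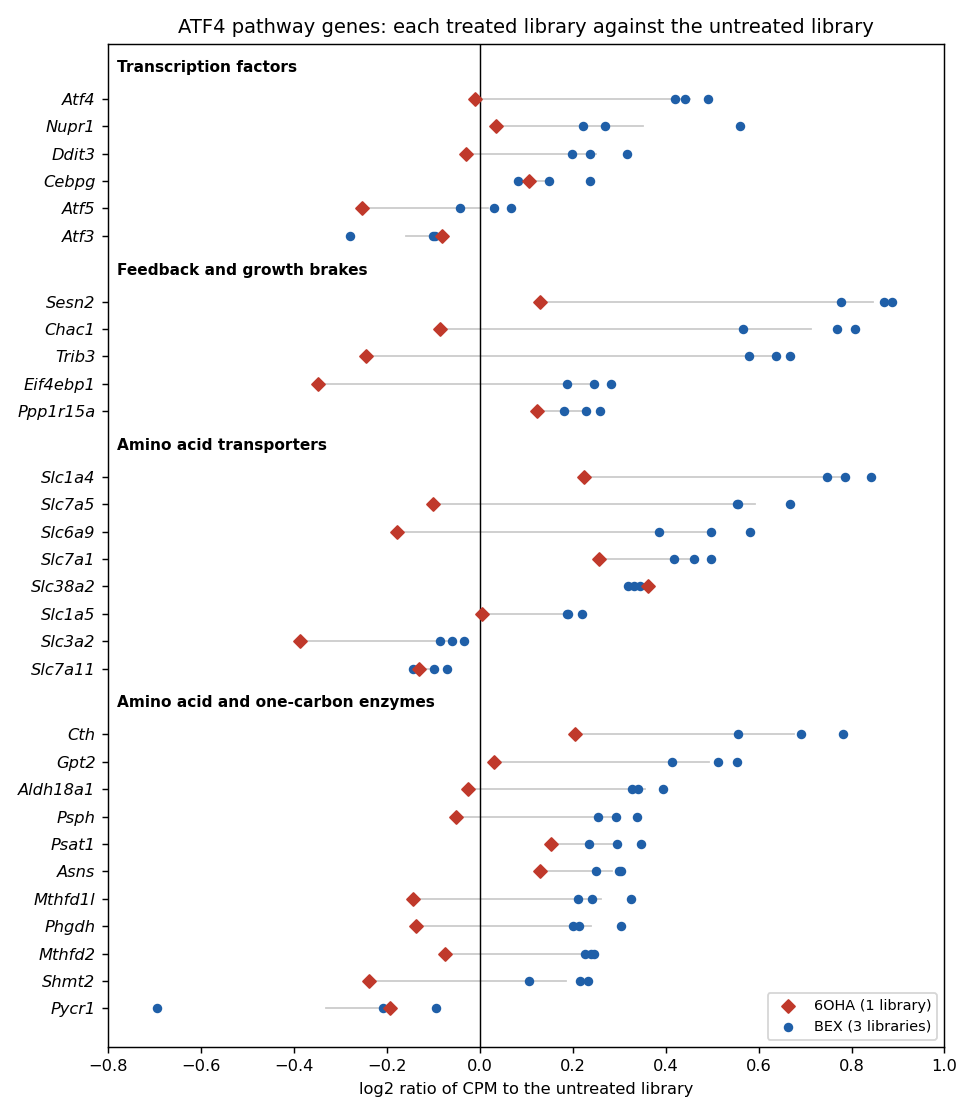
Log2 ratio of CPM in each treated library to CPM in the untreated library (x axis) for the 30 genes, grouped by role. Red diamonds are the 6OHA library, blue circles the 3 BEX libraries, and grey lines join the 6OHA value to the BEX mean. The BEX points lie right of the 6OHA diamond for 25 genes.

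Per transcript length, the genes spanned a wide range in untreated cells. On the deposited TPM scale (corrected for transcript length), Atf4 was the highest at 351 TPM, followed by Slc3a2 at 232, Asns at 222, Mthfd2 at 218 and Eif4ebp1 at 152 TPM. At the low end stood Slc1a4 at 8.72, Gpt2 at 8.16 and Pycr1 at 3.38 TPM. Slc3a2, Asns and Mthfd2 had neighbouring levels, and with 1 untreated library their order has no spread to be judged by. In BEX cells Atf4 averaged 492 TPM, Asns 279, Mthfd2 265, Slc3a2 226 and Eif4ebp1 184 TPM.

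A DNA element that ATF4 is known to bind was found in a larger share of these genes' promoters than of all promoters, a description with no test. The list was chosen around ATF4 and its targets, so this excess cannot serve as support for a role of ATF4 here. RefSeq promoter windows (GRCm38.p6, 250 bases before to 50 after a gene's start) were found for 26 of the 30 genes, the others being Eif4ebp1, Slc7a5, Slc1a5 and Cth. The C/EBP-ATF response element, searched as TGATGNAA on both strands (TTNCATCA on the other), occurred in at least 1 window of 8 of these 26 genes (30.8%). It occurred in 4.51% of all 27025 genes with a window and in 2.98% of the 10997 tested genes with a window. Among genes called higher with BEX 4 of 16 held a match, and among the rest 4 of 10. A match is a description of the letters and not of a bound site, and the letters' absence from this window says nothing of ATF4 elsewhere. Windows are shown here for Chac1 and Asns, which were called higher with BEX, and for Atf3 and Slc7a11, which were not, so that genes that moved and genes that did not can be compared. Each runs 5′ to 3′ on the gene's strand, upstream of the start, with the matches in capitals.
Chac1: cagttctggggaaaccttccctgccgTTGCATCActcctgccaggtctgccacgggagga
Asns: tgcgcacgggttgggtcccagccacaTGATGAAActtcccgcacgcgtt
Atf3: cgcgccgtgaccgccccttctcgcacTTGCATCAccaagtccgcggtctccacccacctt
Slc7a11: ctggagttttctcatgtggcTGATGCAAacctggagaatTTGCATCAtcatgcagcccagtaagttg
The Chac1 window is chr2:119351023-119351082 (plus strand) and its match begins 193 bases before the start. The Asns window is chr6:7693210-7693258 (minus strand), with its match 23 bases before the start. The Atf3 window is chr1:191183410-191183469 (minus strand), with its match 110 bases before the start. Slc7a11, at chr3:50443633-50443699 (minus strand), is the only one of the 26 with 2 matches, in opposite orientations, at 66 and 47 bases before the start. Of the rest, the matches of Nupr1 and Pycr1 lay 110 and 103 bases before the start. That of Slc1a4 spans the start and that of Trib3 lies past it.

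Among the 6 transcription factor genes, Atf4 itself was called higher with BEX and no other was. That is 16.7%, beside 7.55% of all tested genes. Atf4 (Entrez gene 11911, chromosome 15, 80255184 to 80257545, GRCm38.p6) stood at 289 CPM with 6OHA, at 390, 396 and 410 CPM with BEX 1 to 3, and at 291 CPM in untreated cells. The 6OHA and untreated libraries lay side by side, and every BEX library lay well above both. The log2 fold change was -0.46 ± 0.056 for 6OHA against BEX (SE, adjusted p = 0.00012) and 0.45 ± 0.056 for BEX against untreated cells (adjusted p = 2.10e-05). For 6OHA against untreated cells it was -0.010, with a 95% interval of -0.16 to 0.14. That interval sets 1 library against 1 and holds only the spread of the BEX libraries. With GC and length offsets the value for 6OHA against untreated cells was 0.146.

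Ddit3, which encodes the death-promoting factor CHOP, missed the threshold in all 3 comparisons. It stood at 32.0 CPM with 6OHA, at 40.7, 38.5 and 37.5 CPM with BEX and at 32.7 CPM in untreated cells. The BEX libraries were again above both others, but the log2 fold changes of -0.28 ± 0.090 for 6OHA against BEX (adjusted p = 0.056) and 0.25 ± 0.089 for BEX against untreated cells (adjusted p = 0.055) were not called. Leaving out BEX replicate 2 or 3 brought calls in each of these comparisons, at adjusted p = 0.021 and 0.027 against BEX and 0.028 and 0.026 against untreated cells. The ends of Ddit3 overlap Mbd6 by 77 bases and the methionyl-tRNA synthetase gene Mars by 71, and whether strand was used in counting is not given in the sources used here. Mars was itself called higher with BEX (0.24 ± 0.070, adjusted p = 0.016). Mbd6 was not called, at -0.33 ± 0.10 for 6OHA against BEX. The part of either gene in the Ddit3 counts was not tested.

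Atf5, a factor translated under stress in the same way as ATF4, differed from Atf4. It stood at 92.7 CPM with 6OHA, at 113, 116 and 107 CPM with BEX and at 110 CPM in untreated cells, so the BEX libraries lay on either side of the untreated level. It fell with 6OHA, by 0.25 ± 0.087 against untreated cells (adjusted p = 0.034) and by 0.27 ± 0.072 against BEX (adjusted p = 0.019). Neither call held with offsets for GC content and length, where the log2 fold changes were 0.039 (adjusted p = 0.80) and -0.080 (adjusted p = 0.50). Over the alternatives the adjusted p ranged from 0.0050 to 0.80 and from 0.0029 to 0.50. Atf5 shares 571 bases with the nuclear pore gene Nup62, which was not called in any comparison.

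The stress factor Atf3 was not called, at 73.6 CPM with 6OHA, 72.8, 64.1 and 72.6 CPM with BEX and 77.8 CPM in untreated cells. All treated libraries were below the untreated one, by less than the test could separate (BEX against untreated -0.16 ± 0.088, adjusted p = 0.20). Cebpg, a partner of ATF4 in DNA binding, and Nupr1, a stress-induced nuclear protein gene, had BEX fold changes of 0.16 ± 0.078 and 0.37 ± 0.16 on the log2 scale, with adjusted p = 0.14 and 0.13. They were called higher without BEX replicate 2, at 0.19 (adjusted p = 0.021) and 0.43 (adjusted p = 0.026). Nupr1 had a BEX coefficient of variation of 13.0%, and its 6OHA against BEX interval ran from -0.67 to 0.012.

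The 3 largest differences between 6OHA and BEX among the 30 genes were in feedback and growth-brake genes, Trib3, Chac1 and Sesn2. Of 5 kept, 4 were called higher with BEX and the same 4 lower with 6OHA against BEX. That is 80% in each, beside 7.55% of all tested genes higher with BEX and 4.13% lower with 6OHA against BEX. Trib3, a pseudokinase gene that ATF4 induces and that restrains ATF4, stood at 31.5 CPM with 6OHA, at 59.3, 58.0 and 55.8 CPM with BEX and at 37.3 CPM in untreated cells. Its level with 6OHA was the lowest of the 5 libraries, and the BEX libraries did not overlap either of the others. The log2 fold change was -0.87 ± 0.085 for 6OHA against BEX (adjusted p = 3.48e-05), the largest difference between the compounds among these genes. It was 0.63 ± 0.082 for BEX against untreated cells (adjusted p = 6.07e-05). For 6OHA against untreated cells, the value of -0.25 ± 0.11 was not called (adjusted p = 0.10).

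Sesn2, which encodes a leucine-binding inhibitor of the growth kinase complex mTORC1, gave the largest BEX rise. It stood at 20.6 CPM with 6OHA, at 34.8, 34.4 and 32.2 CPM with BEX and at 18.8 CPM in untreated cells. That is a rise of 0.84 ± 0.10 on the log2 scale, or 1.79-fold, for BEX (adjusted p = 3.33e-05). Against BEX, 6OHA was lower by 0.72 (log2 fold change -0.72 ± 0.10, adjusted p = 0.00063), and the 95% interval for 6OHA against untreated cells was -0.15 to 0.41. Chac1, whose product breaks down glutathione, was also highest with BEX. It stood at 9.55 CPM with 6OHA, at 17.3, 17.7 and 15.01 CPM with BEX and at 10.1 CPM in untreated cells. The 6OHA library again lay with the untreated one and apart from BEX (6OHA against BEX -0.80 ± 0.15, adjusted p = 0.0040; BEX against untreated 0.71 ± 0.14, adjusted p = 0.0025).

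Eif4ebp1 was the only gene called in opposite directions by the compounds. It encodes 4E-BP1, a repressor of cap-dependent translation, and stood at 56.4 CPM with 6OHA, at 81.8, 85.2 and 87.4 CPM with BEX and at 71.8 CPM in untreated cells. The untreated library lay between the treated groups. The log2 fold change was -0.35 ± 0.092 for 6OHA against untreated cells (adjusted p = 0.011), 0.24 ± 0.073 for BEX against untreated cells (adjusted p = 0.021) and -0.59 ± 0.076 for 6OHA against BEX (adjusted p = 0.00023). Without a filter on low counts the calls against untreated cells were lost, at adjusted p = 0.052 for 6OHA and 0.066 for BEX.

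Ppp1r15a, the GADD34 subunit that brings a phosphatase back to eIF2, was not called, at 32.2 CPM with 6OHA, 34.6, 33.5 and 35.4 CPM with BEX and 29.6 CPM in untreated cells. Its BEX fold change was 0.22 ± 0.088 on the log2 scale (adjusted p = 0.082), and it was called without BEX replicate 2 (0.24, adjusted p = 0.041). The growth brakes Sesn3 and Ddit4 and the secreted glycoprotein gene Stc2 were near the detection limit. Sesn3 had 0 counts in every library, which allows at most 0.0740 to 0.0887 CPM for counting error alone. Ddit4 had 8 counts with 6OHA, 26, 5 and 10 with BEX and 6 in untreated cells, and Stc2 had 4 with 6OHA, 21, 17 and 7 with BEX and 17 in untreated cells. The BEX libraries overlapped the untreated counts for each, and neither gene was called in any comparison.

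**Figure D2:**
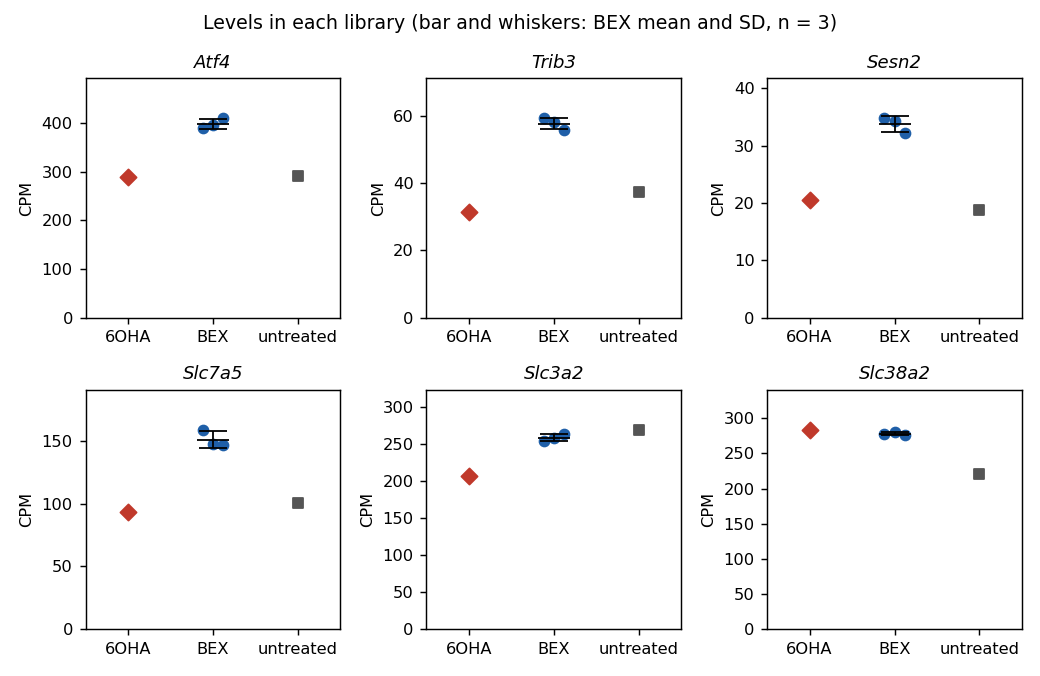
CPM (y axis, from 0) of 6 genes in the 6OHA library (diamond), the 3 BEX libraries (circles, with mean and SD) and the untreated library (square). Atf4, Trib3, Sesn2 and Slc7a5 were high in the BEX libraries alone, Slc3a2 was low with 6OHA, and Slc38a2 was high with both compounds.

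Of 8 amino acid transporter genes, 6 were called higher with BEX (75%, beside 7.55% of all tested genes). With 6OHA, 2 were higher and 1 lower (25% and 12.5%, beside 7.59% and 7.19%). Slc7a5, which encodes LAT1, the importer of leucine and other large neutral amino acids, stood at 93.5 CPM with 6OHA, at 159, 147 and 147 CPM with BEX and at 100 CPM in untreated cells. The BEX libraries were clear of both lone libraries (6OHA against BEX -0.69 ± 0.073, adjusted p = 4.74e-05; BEX against untreated 0.59 ± 0.073, adjusted p = 2.45e-05). Slc3a2, the CD98 heavy chain with which LAT1 and xCT assemble, did not follow it. It stood at 206 CPM with 6OHA, at 254, 259 and 263 CPM with BEX and at 270 CPM in untreated cells. With BEX it was not called (-0.059, 95% interval -0.18 to 0.063), whereas it fell with 6OHA by 0.39 ± 0.070 against untreated cells (adjusted p = 0.00069) and by 0.33 ± 0.057 against BEX (adjusted p = 0.0015).

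Slc1a4 and Slc6a9 were also higher with BEX than with 6OHA or in untreated cells. Slc1a4 (ASCT1, for alanine, serine and cysteine) stood at 19.3 CPM with 6OHA, at 28.5, 29.6 and 27.7 CPM with BEX and at 16.5 CPM in untreated cells. The rise with BEX was 0.79 ± 0.10 on the log2 scale (adjusted p = 7.59e-05), and 6OHA was lower than BEX (-0.57 ± 0.10, adjusted p = 0.0030). Slc6a9 (the glycine transporter GlyT1) stood at 16.9 CPM with 6OHA, at 26.9, 24.9 and 28.5 CPM with BEX and at 19.1 CPM in untreated cells. The BEX libraries again lay above both lone libraries (6OHA against BEX -0.67 ± 0.12, adjusted p = 0.0026; BEX against untreated 0.49 ± 0.11, adjusted p = 0.0053). Slc1a5 (ASCT2, a glutamine carrier) rose by 0.20 ± 0.063 with BEX (adjusted p = 0.024). Its call against BEX (-0.19 ± 0.064, adjusted p = 0.048) did not hold when BEX replicate 1 was left out (-0.20, adjusted p = 0.080), with DESeq2 (-0.19, adjusted p = 0.066) and with the correction for GC and length (-0.051, adjusted p = 0.66). The adjusted p ran from 0.028 to 0.66 over all alternatives.

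Slc38a2 and Slc7a1 were the transporters that 6OHA raised. Slc38a2, which encodes the glutamine and alanine carrier SNAT2, stood at 284 CPM with 6OHA, at 278, 281 and 276 CPM with BEX and at 221 CPM in untreated cells. The treated libraries lay together above the untreated one, with log2 fold changes of 0.36 ± 0.067 for 6OHA (adjusted p = 0.00080) and 0.33 ± 0.055 for BEX (adjusted p = 0.00025). The difference of 6OHA against BEX was 0.029, with a 95% interval of -0.088 to 0.15. Slc7a1 (CAT1, for arginine and lysine) was intermediate, at 230 CPM with 6OHA, 264, 271 and 256 CPM with BEX and 192 CPM in untreated cells. It rose by 0.26 ± 0.074 with 6OHA (adjusted p = 0.012) and by 0.46 ± 0.060 with BEX (adjusted p = 3.66e-05), and was lower with 6OHA than with BEX (-0.20 ± 0.060, adjusted p = 0.028). Leaving out BEX replicate 1 ended the call of that difference (-0.20, adjusted p = 0.055), and the 6OHA rise was not called with the offsets (0.17, adjusted p = 0.056).

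Slc7a11, which encodes the cystine importer xCT, was not called, at 196 CPM with 6OHA, 205, 200 and 194 CPM with BEX and 215 CPM in untreated cells. Every treated library was below the untreated one. With GC and length offsets it was called lower with 6OHA (-0.35, adjusted p = 0.00092; range 0.00092 to 0.57) and with BEX (-0.24, adjusted p = 0.0019; range 0.0019 to 0.57). Slc7a11 is also a target of NRF2, the oxidative stress factor. Of 10 other NRF2 targets, 1 was higher and 1 lower with 6OHA, and 1 was higher and 4 lower with BEX, among those lower Prdx1 (-0.27 ± 0.056, adjusted p = 0.00099) and Gclm (-0.27 ± 0.076, adjusted p = 0.011). The gene called higher was Osgin1, by 0.57 ± 0.14 with 6OHA (adjusted p = 0.010) and by 1.14 ± 0.12 with BEX (adjusted p = 6.41e-06), and it was lower with 6OHA than with BEX (-0.57 ± 0.11, adjusted p = 0.0036). Of the 10 targets, 10% were called higher and 10% lower with 6OHA, beside 7.59% and 7.19% of all tested genes. With BEX, 10% were higher and 40% lower, beside 7.55% and 6.03%. DESeq2 called 1 higher and 1 lower with 6OHA, and 1 higher and 3 lower with BEX. The GC and length offsets gave 2 higher and 2 lower with 6OHA, and 1 higher and 4 lower with BEX. Nfe2l2, the NRF2 gene, was not called (BEX against untreated -0.096, adjusted p = 0.30).

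Of 11 enzyme genes, 9 were called higher with BEX (81.8%, beside 7.55% of all tested genes). With 6OHA against BEX, 7 were lower (63.6%, beside 4.13%). For 6OHA against untreated cells, 0 were higher and 1 lower (9.09%), beside 7.59% and 7.19% of all tested genes. In that comparison edgeR put 1 higher and 1 lower at an unadjusted p under 0.05, and DESeq2 called 0 in either direction. The serine pathway starts with Phgdh, continues through Psat1 and ends with Psph. Phgdh stood at 117 CPM with 6OHA, at 159, 149 and 148 CPM with BEX and at 129 CPM in untreated cells. It was higher with BEX than in untreated cells (0.24 ± 0.068, adjusted p = 0.013) and lower with 6OHA than with BEX (-0.38 ± 0.069, adjusted p = 0.0023). Psph moved alike, at 0.30 ± 0.086 for BEX against untreated cells (adjusted p = 0.021, but 0.083 with DESeq2) and -0.35 ± 0.087 for 6OHA against BEX (adjusted p = 0.019). Psph shares 88 bases with Cct6a, which was not called in any comparison. Cct6a held 40709 counts over all libraries, against 6587 for Psph, and its part in the Psph counts was not tested. Psat1 rose with BEX by 0.29 ± 0.070 (adjusted p = 0.0046), but its difference of -0.14 between 6OHA and BEX was not called (95% interval -0.29 to 0.010).

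The mitochondrial folate genes Mthfd2, Mthfd1l and Shmt2, which turn serine into glycine and formate, were all lower with 6OHA than with BEX. Mthfd2 stood at 207 CPM with 6OHA, at 258, 257 and 255 CPM with BEX and at 218 CPM in untreated cells. Its BEX libraries differed by 0.674% (coefficient of variation), the tightest of the 30 genes, and the log2 fold change was -0.31 ± 0.056 against BEX (adjusted p = 0.0017) and 0.24 ± 0.055 for BEX against untreated cells (adjusted p = 0.0033). Shmt2 stood at 120 CPM with 6OHA, at 152, 166 and 164 CPM with BEX and at 141 CPM in untreated cells. The untreated level lay between the treated groups. Shmt2 was lower with 6OHA than with BEX (-0.43 ± 0.072, adjusted p = 0.0014) and than in untreated cells (-0.24 ± 0.088, adjusted p = 0.044), though the second of these was lost with DESeq2 (-0.23, adjusted p = 0.053) and, once GC content and length were offset, stood at -0.042 (adjusted p = 0.78; range 0.0057 to 0.78). With BEX it just missed a call (0.19, adjusted p = 0.053) and gained it without BEX replicate 1 (0.23, adjusted p = 0.019) or replicate 2 (0.16, adjusted p = 0.035). Mthfd1l was lower with 6OHA than with BEX (-0.40 ± 0.088, adjusted p = 0.0093). Its rise with BEX (0.26 ± 0.086, adjusted p = 0.038) did not hold when BEX replicate 1 was left out (0.23, adjusted p = 0.085) or with DESeq2 (0.27, adjusted p = 0.13).

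Asns, the asparagine synthetase gene, rose with BEX, and its lower level with 6OHA than with BEX missed the threshold. It stood at 230 CPM with 6OHA, at 259, 250 and 259 CPM with BEX and at 210 CPM in untreated cells, so the 6OHA library lay between the other groups. The log2 fold change was 0.28 ± 0.058 for BEX against untreated cells (adjusted p = 0.0012). For 6OHA against BEX it was -0.15 (95% interval -0.28 to -0.029, adjusted p = 0.072), which was called without BEX replicate 2 (-0.17, adjusted p = 0.014). Cth, which makes cysteine from cystathionine, had a larger rise with BEX of 0.67 ± 0.15 (adjusted p = 0.0046). Its level was 9.61 CPM with 6OHA, 14.4, 13.5 and 12.3 CPM with BEX and 8.35 CPM in untreated cells. Here the difference of -0.47 ± 0.14 between 6OHA and BEX narrowly missed the threshold (adjusted p = 0.052) and was called without BEX replicate 2 (-0.46, adjusted p = 0.030) or replicate 3 (-0.54, adjusted p = 0.018).

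Gpt2, the mitochondrial alanine aminotransferase gene, stood at 20.2 CPM with 6OHA, at 28.1, 28.9 and 26.3 CPM with BEX and at 19.7 CPM in untreated cells. The 6OHA library was again level with the untreated one (6OHA against BEX -0.46 ± 0.10, adjusted p = 0.012; BEX against untreated 0.49 ± 0.10, adjusted p = 0.0033). Aldh18a1, which starts proline synthesis, rose with BEX by 0.36 ± 0.071 (adjusted p = 0.0014) and was lower with 6OHA than with BEX (-0.38 ± 0.071, adjusted p = 0.0029). A pseudogene row, Gm15801, lies within it and was not called in any comparison. Pycr1, which ends proline synthesis, was low and variable, at 2.75 CPM with 6OHA, 1.95, 2.95 and 2.72 CPM with BEX and 3.15 CPM in untreated cells. Its 6OHA against BEX interval of -0.48 to 0.69 includes the value of Aldh18a1.

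**Figure D3:**
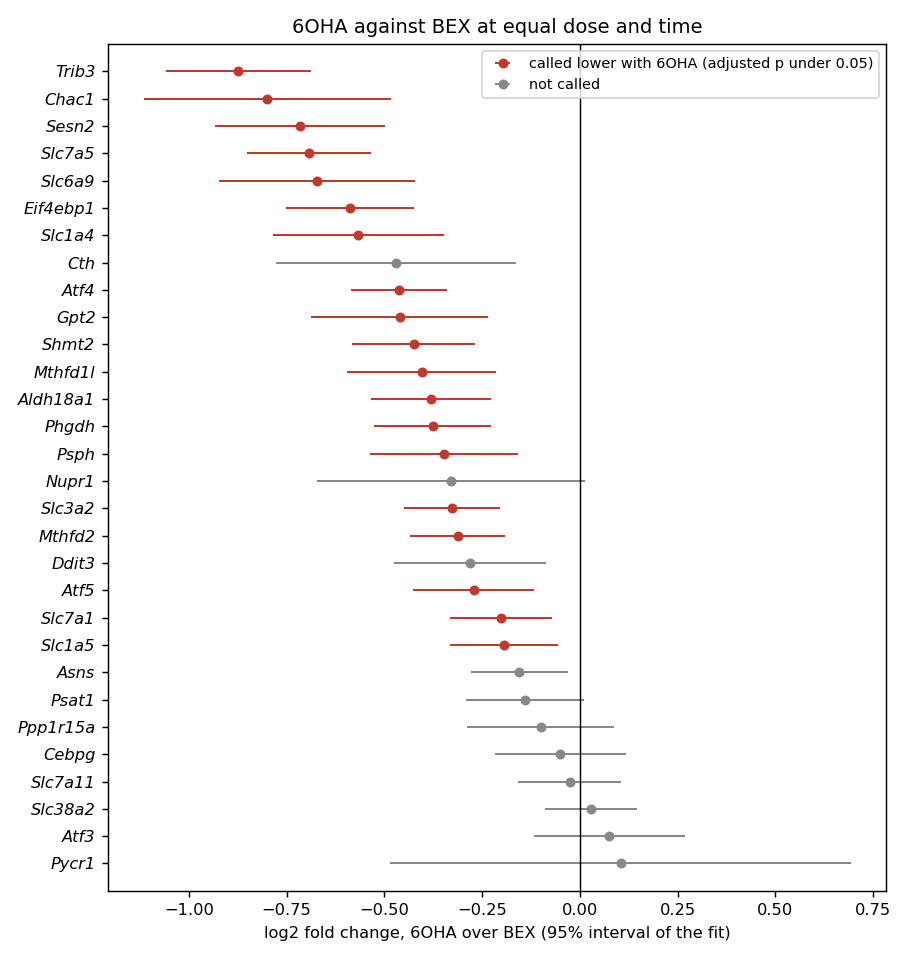
Log2 fold change of 6OHA over BEX for the 30 genes (x axis) with 95% intervals from the fit, sorted from lowest to highest. Red marks the 19 genes called lower with 6OHA, grey the 11 not called. Trib3 is lowest at -0.87.

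Neighbouring steps of the pathway were read from lists of genes outside the 30. The cytosolic aminoacyl-tRNA synthetase genes, which charge tRNAs and include known ATF4 targets, came closest. Of 20 tested, 4 were higher and 1 lower with 6OHA, 13 were higher and 0 lower with BEX, and 7 were lower and 0 higher with 6OHA against BEX. With BEX 65% were higher, beside 7.55% of all tested genes, and 35% were lower with 6OHA against BEX, beside 4.13%. With 6OHA 20% were higher and 5% lower, beside 7.59% and 7.19%. DESeq2 called 12 higher and 0 lower with BEX, and 8 lower and 0 higher with 6OHA against BEX. At an unadjusted p under 0.05, edgeR put 0 lower with BEX and 0 higher with 6OHA against BEX. Wars stood at 80.7 CPM with 6OHA, at 123, 119 and 118 CPM with BEX and at 77.6 CPM in untreated cells. The 6OHA library lay close to the untreated one and below every BEX library, with a log2 fold change of -0.57 ± 0.068 for 6OHA against BEX (adjusted p = 0.00012). Nars, in contrast, rose with both, by 0.29 ± 0.065 with 6OHA (adjusted p = 0.0028) and by 0.43 ± 0.053 with BEX (adjusted p = 1.86e-05).

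The eIF2 kinases, eIF2 subunits, exchange factor genes and phosphatase partners showed less change with BEX, and between the compounds, than the synthetases. Of 16 tested, 3 were higher and 0 lower with 6OHA, and 3 were higher and 0 lower with BEX. That is 18.8% higher with each compound, beside 7.59% of all tested genes with 6OHA and 7.55% with BEX. For 6OHA against BEX edgeR and DESeq2 each called 0, with 2 higher and 3 lower in edgeR at an unadjusted p under 0.05. Eif2ak4, which encodes the amino acid sensing kinase GCN2, and Impact, which encodes an inhibitor of GCN2 activation, rose with 6OHA by 0.31 ± 0.094 (adjusted p = 0.021) and 0.35 ± 0.082 (adjusted p = 0.0039). The subunit gene Eif2s2 rose with both, by 0.23 ± 0.070 with 6OHA (adjusted p = 0.018) and by 0.33 ± 0.057 with BEX (adjusted p = 0.00039). The other genes called with BEX were the phosphatase subunit gene Ppp1r15b (0.21 ± 0.058, adjusted p = 0.011) and the double-stranded RNA kinase gene Eif2ak2 (0.22 ± 0.067, adjusted p = 0.023).

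Of 21 genes of the endoplasmic reticulum stress response, edgeR called 3 higher and 2 lower with 6OHA, and 3 higher and 2 lower with BEX. That is 14.3% higher and 9.52% lower with each compound. The shares of all tested genes were 7.59% and 7.19% with 6OHA, and 7.55% and 6.03% with BEX. DESeq2 called 3 higher and 1 lower with 6OHA and 3 higher and 2 lower with BEX, and the GC and length offsets gave 2 higher and 0 lower with 6OHA and 2 higher and 2 lower with BEX. Ern1, the sensor kinase gene of the XBP1 arm, stood at 38.0 CPM with 6OHA, at 38.7, 39.3 and 38.1 CPM with BEX and at 22.9 CPM in untreated cells. All treated libraries lay above the untreated one (0.73 ± 0.11 with 6OHA, adjusted p = 0.00033; 0.75 ± 0.090 with BEX, adjusted p = 3.10e-05). Xbp1 rose with 6OHA by 0.29 ± 0.073 (adjusted p = 0.0068) and with BEX by 0.28 ± 0.060 (adjusted p = 0.0018), whereas the chaperone partner gene Sdf2l1 fell with each (-0.37 ± 0.087, adjusted p = 0.0054; -0.32 ± 0.070, adjusted p = 0.0026). Between the compounds, Herpud1 was lower (-0.34 ± 0.070, adjusted p = 0.0062) and Edem1 higher (0.21 ± 0.053, adjusted p = 0.011) with 6OHA.

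Among 22 amino acid sensing and mTORC1 genes, 4 were higher and 0 lower with each compound. They were the same genes: Castor2, Fnip1, Rraga and Mtor, with Castor2 up by 0.78 ± 0.11 with 6OHA (adjusted p = 0.00028) and by 0.61 ± 0.095 with BEX (adjusted p = 0.00034). In edgeR's fit the share higher was 18.2% with each compound, beside 7.59% of all tested genes with 6OHA and 7.55% with BEX. DESeq2 called 2 higher with 6OHA and 3 with BEX, and 0 lower with either. The GC and length offsets gave 2 higher and 0 lower with 6OHA, and 3 higher and 2 lower with BEX, and at an unadjusted p under 0.05 edgeR put 1 lower with 6OHA and 2 with BEX. For 6OHA against BEX edgeR and DESeq2 each called 0 of these 22, with 4 higher and 1 lower in edgeR at an unadjusted p under 0.05.

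Amino acid transporter genes outside the 30 did not show the BEX pattern. Of 13 tested, 4 were higher and 1 lower with 6OHA, and 2 were higher and 1 lower with BEX. With 6OHA that is 30.8% and 7.69%, beside 7.59% and 7.19% of all tested genes. With BEX it is 15.4% and 7.69%, beside 7.55% and 6.03%. Slc16a10, the aromatic amino acid carrier gene, rose by 0.82 ± 0.12 with 6OHA (adjusted p = 0.00025) and by 0.73 ± 0.098 with BEX (adjusted p = 9.13e-05). The gene called lower with each compound was Slc1a2, also listed among the astrocyte markers. Its log2 fold change was -1.22 ± 0.28 with 6OHA (adjusted p = 0.0079) and -1.09 ± 0.20 with BEX (adjusted p = 0.0024). It stood at 3.04 CPM with 6OHA, 2.98, 4.11 and 2.90 CPM with BEX and 7.08 CPM in untreated cells. DESeq2 called 4 higher and 0 lower with 6OHA, and 2 higher and 1 lower with BEX. Of 14 other folate and methionine cycle genes, 0 were called with 6OHA by edgeR or by DESeq2 (1 higher and 3 lower in edgeR at an unadjusted p under 0.05). In edgeR, 14.8% of all tested genes were called with 6OHA. With BEX, edgeR called 1 higher and 1 lower (7.14% each, beside 7.55% and 6.03%), and DESeq2 called 0. The shares called were not tested against each other between lists.

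Sesn2 and Ddit4 also answer to p53. MG5 is known to have been derived from p53-deficient mice, and Trp53 stood at 1.97 CPM with 6OHA, at 2.12, 1.54 and 1.63 CPM with BEX and at 1.94 CPM in untreated cells, with no call in any comparison. Of 11 other p53 targets tested, 1 was higher and 1 lower with each compound, or 9.09% each way. Among all tested genes, 7.59% were higher and 7.19% lower with 6OHA, and 7.55% and 6.03% with BEX. The genes called with 6OHA were Plk2 (0.39 ± 0.091, adjusted p = 0.0049) and Bbc3 (-0.82 ± 0.25, adjusted p = 0.033). Those called with BEX were Plk2 (0.55 ± 0.075, adjusted p = 5.82e-05) and Fas (-0.52 ± 0.14, adjusted p = 0.022). DESeq2 called 1 higher and 0 lower with each compound. The GC and length offsets gave 1 higher with each, and 0 lower with 6OHA and 1 with BEX.

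**Figure D4:**
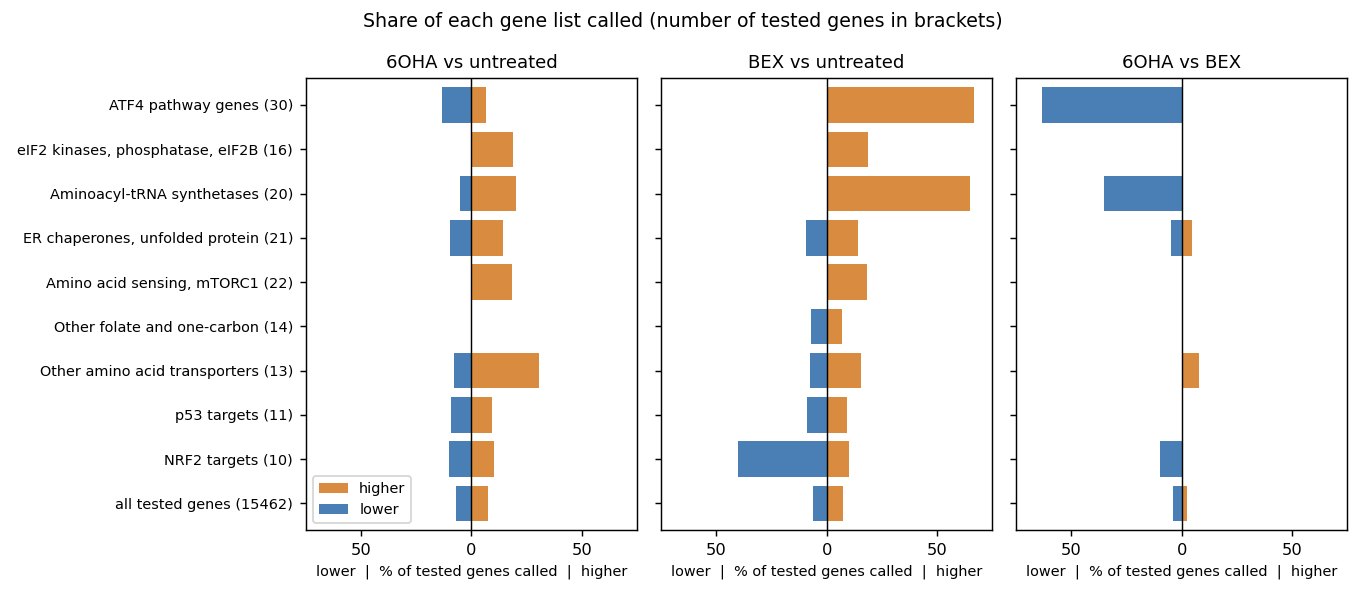
Percent of each gene list called higher (right, orange) or lower (left, blue) in the 3 comparisons (panels), with the number of tested genes in brackets and all 15462 tested genes in the bottom row. The ATF4 pathway genes and the aminoacyl-tRNA synthetases had the largest shares called higher with BEX and lower with 6OHA against BEX. Of the 10 NRF2 targets, 40% were lower with BEX, beside 6.03% of all tested genes. No list was tested as a list.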

How the data were processed

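RNA-seq of 5 MG5 libraries was read from the deposited gene table for mm10. Per the file headers it holds read counts, FPKM and TPM per library. The authors' deposited counts, all whole, underlie the main tests, the deposited TPM served for levels between genes and for 2 alternative tests, and the deposited FPKM were not used. Per the submitters' processing notes, HISAT2 2.1.0, StringTie 2.1.3b, SAMtools 1.9, Bowtie2, Trimmomatic 0.38 and bcl2fastq 2.20.0 were among the tools, with no role given. The kit keeps strand, per the labels' protocols, but its use in counting is not given in the sources used here.

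All 5 libraries entered a single edgeR 4.0.16 quasi-likelihood fit (R 4.3.3) with 3 groups, TMM factors (0.994 to 1.00) and filterByExpr (minimum count 10, minimum total 15). The 2 residual degrees of freedom come from the BEX libraries. Standard errors and 95% intervals use the fitted means, the dispersion and the posterior variance. CPM are scaled by the TMM factors, except marker sums and the ceiling of 3 counts for a count of 0, which use library totals and cover counting error only. BEX libraries differed by more than counting noise (chi-square per degree of freedom 4.62 to 5.97 per pair), so none was treated as a library deposited more than once.

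Alternatives used RLE factors, DESeq2 1.42.0, limma-voom (limma 3.58.1), the older edgeR method, limma on log2(TPM + 1) and log2(TPM + 0.1), other filters, omission of each BEX library, only the compared groups, and offsets from a spline on GC content and length (available for 92.2% of tested genes and all 30 members). The fit was also run on simulated counts, with planted changes larger than those of the 30 genes. All simulated libraries shared the same spread, so that run could not check whether the lone libraries vary as the BEX libraries do. Every member kept is named. From other lists, at most the 4 called genes with the smallest p per list and comparison were eligible to be named, with Trp53 and Nfe2l2 whatever their p. The members and lists were chosen with earlier results of these data known. Some results are not reported here.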

Additional observations from a re-analysis of the deposited data

How the results depend on the processing

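No paired analysis was possible because BEX shares only 1 replicate number with 6OHA and only 1 with untreated cells. With limma on log2(TPM + 1) and log2(TPM + 0.1), 785 and 869 genes were called for 6OHA against untreated cells in place of 2285, with 1 member higher and 2 lower under each and member medians of 0.0047 and 0.0048. BEX against untreated cells then gave 908 and 975 genes in place of 2101, with member medians of 0.32 and 0.33 on this scale, and 6OHA against BEX gave 85 and 144 in place of 1010, with 4 and 6 members lower. Without a filter the counts were 1134, 1216 and 190, with 1 member lower for 6OHA against untreated cells and 12 lower against BEX. GC and length offsets gave 1377 genes, 1 member higher and a median of 0.043 for 6OHA against untreated cells, and 1 member lower (Slc7a11) with BEX. Against BEX the offset median was -0.29. DESeq2 called 2 members lower for 6OHA against untreated cells. Higher genes made up 51.3%, 55.6% and 36.7% of calls in the 3 comparisons. With limma on log2(TPM + 1) they made up 62.2%, 67.7% and 24.7%, and with the offsets 54.2%, 48.3% and 50.7%.

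Leaving out each BEX library gave 871 to 1660 genes called for 6OHA against BEX (1660 without replicate 2), 17 to 22 members lower there, and 20 to 25 members higher with BEX against untreated cells. The cause of these shifts was not tested. The only gene whose sign turned among calls was Atf5 with 6OHA against untreated cells, at 0.039 with the offsets. A fit of only the compared groups could not be made for 6OHA against untreated cells, where 1 library stands against 1. Ddit4, Stc2 and Sesn3 had too few counts to describe, and the low-count genes Pycr1, Nupr1, Chac1 and Cth had the largest standard errors of the 30 for 6OHA against BEX (0.27, 0.16, 0.15 and 0.14, against a median of 0.077).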
